A study of Mus musculus with 48 samples.

Results

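The 10 genes described here are 9 endocytic receptors of macrophages and the secreted protein CD5L, chosen by name as rows of the deposited count tables, out of 54735 genes listed per library. They are *Cd163*, *Mrc1*, *Stab1*, *Stab2*, *Timd4*, *Marco*, *Msr1*, *Colec12*, *Cd36*, and *Cd5l*, and all 10 were found in each of 24 RNA-seq libraries. The libraries came from spleens of 10-week-old Balb/c mice, wild type (WT) or labelled Il1rl1-/-, a germline deficiency of the receptor for IL-33, with 4 mice per genotype. From each mouse, 3 populations were sorted by F4/80 and CD11b among cells low for Ly6G: monocytes (CD11b high, F4/80 negative), red pulp macrophage precursors (pre-RPMs, CD11b high, F4/80 low), and red pulp macrophages (RPMs, CD11b low or negative, F4/80 high). The 24 chromatin accessibility samples of the study were not analysed here.

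Scavenger receptors are cell surface proteins that bind modified lipoproteins, polyanions, microbes, dying cells, or spent plasma complexes and carry them into the cell. RPMs are the splenic macrophages that clear aged red blood cells and recycle their iron, and they develop from monocytes through pre-RPMs. CD163 takes up haemoglobin bound to haptoglobin, and the mannose receptor MRC1 (CD206) binds mannosylated glycoproteins. The stabilins and TIM-4, the product of *Timd4*, bind phosphatidylserine on dying cells. MARCO, SR-A (encoded by *Msr1*), and the collectin COLEC12 are collagen-like receptors of class A, CD36 is a class B receptor for oxidised lipids and fatty acids, and CD5L (AIM) is a secreted member of the scavenger receptor cysteine-rich family.

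Total counts on genes were between 3562367 and 6559454 per library, and levels are given as CPM, counts scaled by library size and TMM factors. The limit below which a level was not separated from 0 was set at 3 counts, which is between 0.451 and 0.896 CPM and covers counting error only. Reads on *Il1rl1* went against the genotype label in monocytes (12 to 28 counts in WT, 51 to 73 in libraries labelled Il1rl1-/-) and in pre-RPMs (13 to 24 against 42 to 76), but not in RPMs (5 to 13 against 1 to 7). Which exons these reads came from was not analysed, so they do not check the deletion, and every direction between genotypes follows the label. The summed CPM of 8 RPM markers lay between 6138 and 8583 in RPMs, against 158 to 334 in pre-RPMs and 41.0 to 139.6 in monocytes. Monocyte libraries also held NK cell markers (all 7 markers above 3 counts, 501 to 1896 CPM in sum, against 7.93 to 142 in the other populations) and RPM libraries held erythroid markers (all 6 markers, 123 to 664 CPM, against 3.53 to 31.0).

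Promoters of 8 of the 10 genes were found in the RefSeq table for GRCm38.p6, each from 250 bases before to 50 bases after the start site. Next, 3 letter strings were searched on both strands, namely GAGGAA (a core bound by PU.1 and Spi-C, which share it), AGGTCA (a core of nuclear receptor sites), and AGATAA (bound by factors of the GATA family), which do not overlap each other in the windows printed. Of 32851 promoters of this length, 28.3% hold GAGGAA, 16.3% AGGTCA, and 11.2% AGATAA. The promoters shown are those of 3 genes that were high in RPMs and of *Cd36*, which was not, with these strings or their reverse complement in capitals. They lie at chr3:87357631-87357930 (*Cd5l*, plus strand), chr2:14229164-14229463 (*Mrc1*, plus strand), chr10:87007893-87008192 (*Stab2*, minus strand), and chr5:17835847-17836146 (*Cd36*, minus strand). The start used for *Cd36* lies inside its annotated span (17781690 to 17888801), away from the upstream end, whereas the others lie near theirs.
Cd5l: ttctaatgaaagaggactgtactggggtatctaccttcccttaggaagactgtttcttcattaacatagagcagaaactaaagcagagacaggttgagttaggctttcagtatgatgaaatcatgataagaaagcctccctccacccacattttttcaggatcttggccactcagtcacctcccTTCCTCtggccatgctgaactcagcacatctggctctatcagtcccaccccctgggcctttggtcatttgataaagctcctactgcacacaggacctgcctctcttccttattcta
Mrc1: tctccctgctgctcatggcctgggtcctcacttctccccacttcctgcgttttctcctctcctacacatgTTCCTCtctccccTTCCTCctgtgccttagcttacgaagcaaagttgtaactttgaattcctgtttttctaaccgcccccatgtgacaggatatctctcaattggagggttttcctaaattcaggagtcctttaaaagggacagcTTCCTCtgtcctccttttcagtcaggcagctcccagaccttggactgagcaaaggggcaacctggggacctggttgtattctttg
Stab2: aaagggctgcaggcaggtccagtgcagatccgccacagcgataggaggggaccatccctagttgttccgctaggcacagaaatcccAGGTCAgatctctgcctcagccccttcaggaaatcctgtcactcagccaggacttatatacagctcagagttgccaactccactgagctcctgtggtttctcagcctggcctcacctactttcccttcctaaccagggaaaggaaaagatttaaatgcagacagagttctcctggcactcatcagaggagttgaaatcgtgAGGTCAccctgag
Cd36: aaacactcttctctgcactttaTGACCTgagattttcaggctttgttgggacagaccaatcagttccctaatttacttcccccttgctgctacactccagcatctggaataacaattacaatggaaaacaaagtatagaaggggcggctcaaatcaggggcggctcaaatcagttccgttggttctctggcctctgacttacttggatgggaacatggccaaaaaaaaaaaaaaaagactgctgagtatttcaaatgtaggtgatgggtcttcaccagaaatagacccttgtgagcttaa
In the *Cd5l* window, GAGGAA (as TTCCTC) begins 66 bases before the start. The *Mrc1* window holds 3 copies of TTCCTC, and the *Stab2* window 2 copies of AGGTCA. The *Cd36* window holds 1 TGACCT, the reverse complement of AGGTCA, and that of *Cd163* held none of the 3 strings. Of the other windows not printed, those of *Stab1* and *Marco* held 1 GAGGAA each, and that of *Timd4* held 1 AGGTCA. *Stab1* was too low to be tested in any comparison, so GAGGAA was not confined to genes that were high in RPMs. None of the 8 windows held AGATAA. Other strings bound by GATA factors were not searched, so this does not show that the windows lack a GATA site. These matches describe letters only.

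The first comparison asked how the 10 genes changed as pre-RPMs became RPMs. *Cd5l*, *Cd163*, *Mrc1*, *Stab2*, *Timd4*, and *Marco* rose, *Msr1* and *Colec12* fell, and *Cd36* was not called, in WT libraries and equally in those labelled Il1rl1-/-. Calls needed a log2 fold change beyond 1 in size together with an adjusted p below 0.01 (edgeR's quasi-likelihood test, Benjamini-Hochberg adjustment over all genes tested), and 8 of the 10 genes were called in each genotype, 6 higher and 2 lower, with 9 tested. Of all genes tested, 24.7% were called in WT (14% higher, 10.7% lower) and 26% in those labelled Il1rl1-/- (14.5% higher, 11.5% lower). *Cd5l*, *Stab2*, *Timd4*, and *Marco* were kept by the filter on low counts through their level in RPMs, so their count is not read against this background. *Stab1* was too low to be tested in any comparison. In bulk libraries, a change in the share of cells that express a gene and a change in RNA per cell cannot be told apart.

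**Figure D1:**
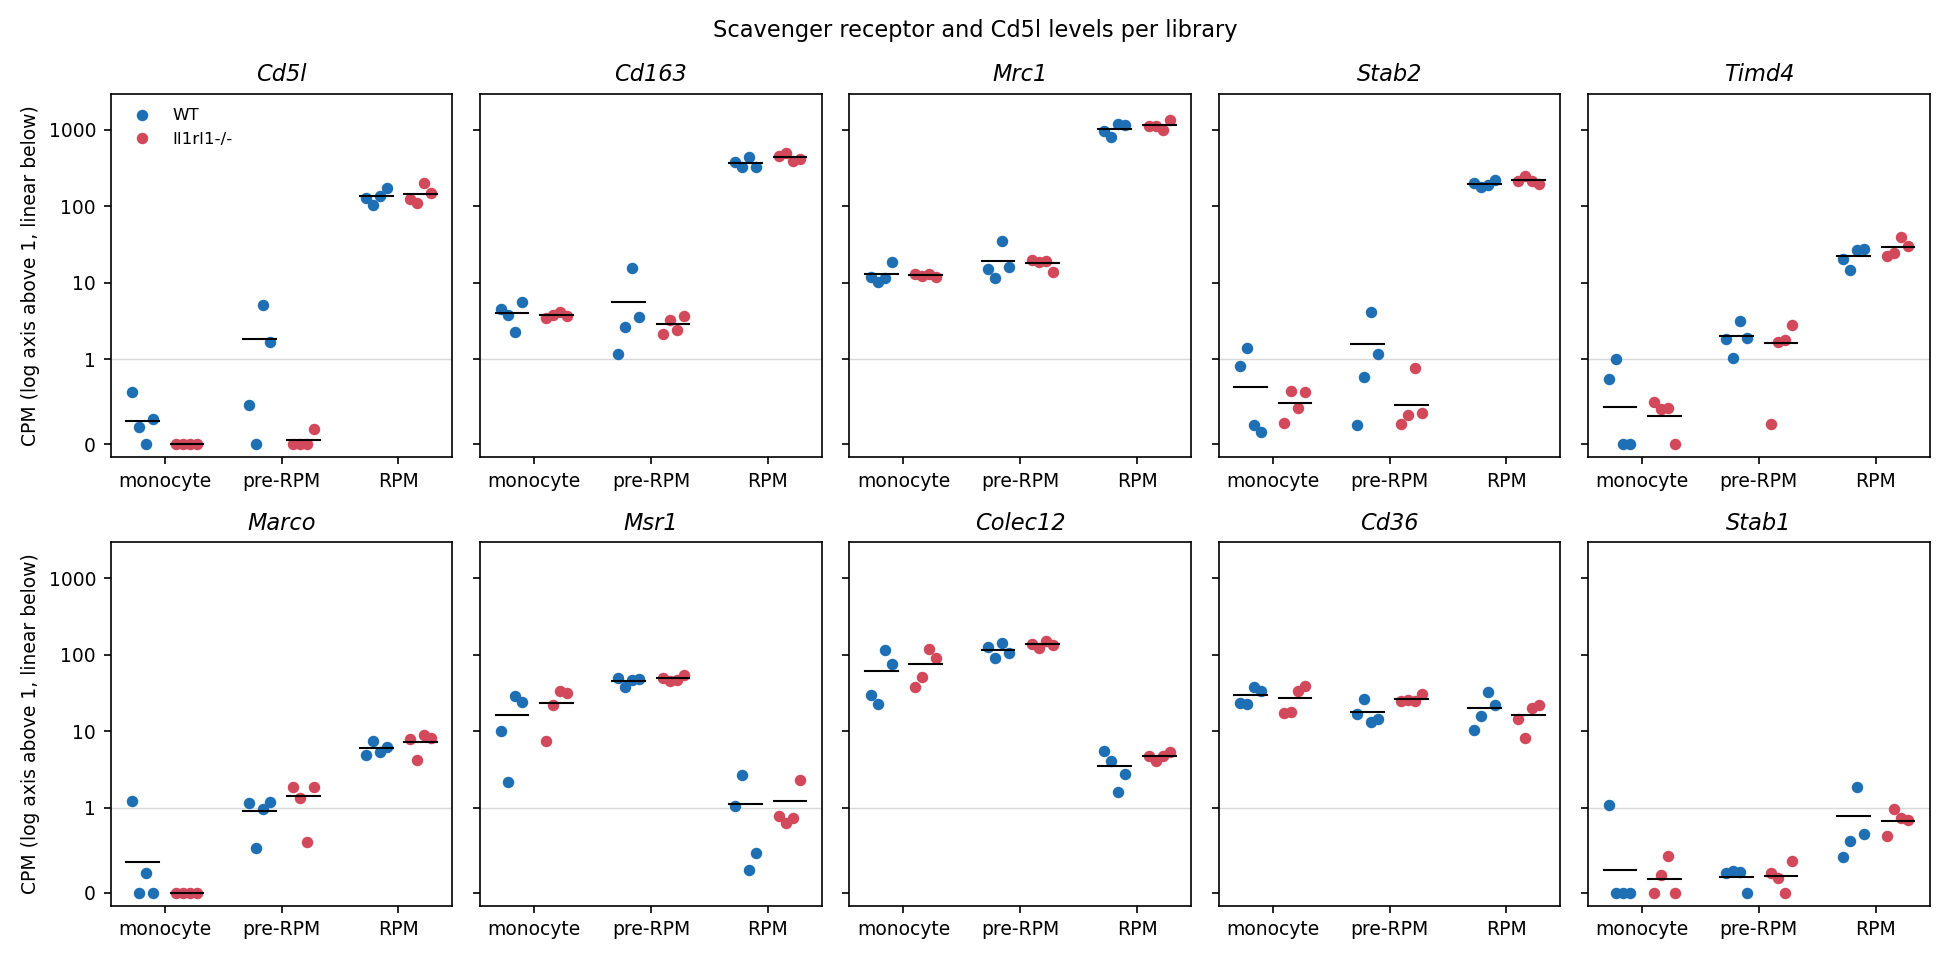
CPM of each of the 10 genes (log axis above 1, linear below) in monocytes, pre-RPMs, and RPMs, with WT in blue and libraries labelled Il1rl1-/- in red; points are the 4 libraries of a group, with mice 1 to 4 from left to right, and lines are means. The upper row and *Marco* are far higher in RPMs than in the other populations, *Msr1* and *Colec12* are lowest there, and *Cd36* overlaps among all populations in WT.

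*Cd5l* (ENSMUSG00000015854, chromosome 3 from 87357881 to 87371073 of GRCm38, plus strand) was close to an on-off gene in these libraries. In WT, mice 1 to 4 had 4, 1, 0, and 2 monocyte counts, 2, 0, 21, and 7 pre-RPM counts, and 600, 510, 514, and 764 RPM counts. Those labelled Il1rl1-/- had no count in monocytes, 0, 0, 0, and 1 in pre-RPMs, and 560, 669, 919, and 711 in RPMs. The RPM groups lie far above the others and overlap each other between genotypes. In RPMs, this was 137 ± 30.4 CPM in WT and 148 ± 40.4 CPM in the libraries labelled Il1rl1-/- (mean ± SD, n = 4 each). From pre-RPMs to RPMs, the log2 fold change in WT was 6.15 (SE 0.42, edgeR adjusted p = 2.66e-08). With the Il1rl1-/- label, no pre-RPM library exceeded the limit of 3 counts, and *Cd5l* was at least 220.2-fold higher in RPMs (edgeR adjusted p = 4.29e-12).

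*Cd163* (ENSMUSG00000008845, chromosome 6 from 124304656 to 124330527, plus strand), the haemoglobin scavenger receptor, rose from a low but counted level. Pre-RPMs of mice 1 to 4 had 1.17, 2.63, 15.5, and 3.58 CPM in WT, and RPMs had 382, 331, 439.9, and 329 CPM. Under the Il1rl1-/- label, pre-RPMs had 2.14, 3.24, 2.39, and 3.74 CPM and RPMs 454, 493, 398, and 417 CPM. WT pre-RPMs of mouse 3 were well above the other 7 pre-RPM libraries, and still far below every RPM library. On the log2 scale, *Cd163* rose by 5.97 (SE 0.47, edgeR adjusted p = 1.18e-07) in WT and 7.15 (SE 0.16, edgeR adjusted p = 3.81e-14) in libraries with the Il1rl1-/- label. Monocytes, at 2.30 to 5.57 CPM, lay in the range of pre-RPMs.

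*Mrc1* (ENSMUSG00000026712, chromosome 2 from 14229392 to 14332057, plus strand) was the most abundant of the 10 genes in RPMs. Its span holds *Mir511* on the same strand. RPMs of mice 1 to 4 had 977, 819.8, 1215, and 1158 CPM in WT and 1127, 1135, 1013, and 1335 CPM in those labelled Il1rl1-/-. Pre-RPMs had 15.4, 11.6, 34.9, and 16.0 CPM in WT and 20.2, 18.6, 19.4, and 13.8 CPM in those labelled Il1rl1-/-. The highest pre-RPM library was again WT mouse 3. The log2 fold change was 5.70 (SE 0.31, edgeR adjusted p = 2.74e-09) in WT and 5.95 (SE 0.15, edgeR adjusted p = 1.29e-13) in libraries with the Il1rl1-/- label.

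The 2 stabilins differed in level. *Stab2* (ENSMUSG00000035459, chromosome 10 from 86841198 to 87008025, minus strand) had 204, 178, 192, and 223 CPM in WT RPMs of mice 1 to 4 and 218, 248, 215, and 194 CPM in those labelled Il1rl1-/-. WT pre-RPMs had 1, 3, 17, and 5 counts, and pre-RPMs labelled Il1rl1-/- had 1, 2, 3, and 2 counts. The log2 fold change in WT was 6.89 (SE 0.34, edgeR adjusted p = 9.53e-10), and in the libraries labelled Il1rl1-/- RPMs exceeded pre-RPMs in *Stab2* at least 326-fold (edgeR adjusted p = 3.81e-14). *Stab1* (ENSMUSG00000042286, chromosome 14 from 31139013 to 31168641, minus strand), its paralogue, had 7 counts or fewer in all 24 libraries. RPM libraries held 2, 3, 7, and 3 counts in WT and 3, 6, 4, and 4 counts in those labelled Il1rl1-/-. Per kilobase of exon (RPKM), mean *Stab2* was 22.7 and mean *Stab1* 0.0878 in WT RPMs.

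Because stabilins and *Mrc1* are also known from sinusoidal endothelium, 12 endothelial markers were read in the same libraries. Their summed level was 5.28 to 11.5 CPM in RPMs and 0.984 to 4.81 CPM in the other populations. In RPMs, 4 of the 12 markers exceeded 3 counts in any library of each genotype, the highest being *Robo4* at 2.25 to 6.17 CPM in WT, the 1 marker tested, which rose from pre-RPMs. *Esam*, which was not tested, was at 1.91 to 4.29 CPM in WT RPMs against 0 to 0.717 CPM in WT pre-RPMs. With the Il1rl1-/- label, *Esam* was at 1.32 to 2.03 CPM in RPMs against 0 to 0.749 CPM in pre-RPMs. *Tek*, *Clec14a*, and *Ramp2* were at 0 in every WT RPM library, and *Lyve1* and *Egfl7* in every RPM library labelled Il1rl1-/-. *Stab2* was at 178 to 248 CPM in the same libraries, and the part of endothelial RNA in the levels of the stabilins and *Mrc1* was not tested.

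*Timd4* and *Marco* rose to lower levels. *Timd4* (ENSMUSG00000055546, chromosome 11 from 46810800 to 46844332, plus strand) had 20.4, 14.9, 27.1, and 27.8 CPM in WT RPMs of mice 1 to 4 and 22.7, 24.5, 39.8, and 30.6 CPM in those labelled Il1rl1-/-. Its pre-RPM libraries had 1.05 to 3.20 CPM in WT and 0.237 to 2.81 CPM in those labelled Il1rl1-/-, and no RPM library overlapped them. The log2 fold change was 3.41 (SE 0.29, edgeR adjusted p = 2.79e-07) in WT and 4.04 (SE 0.32, edgeR adjusted p = 3.25e-08) in libraries with the Il1rl1-/- label.

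*Marco* (ENSMUSG00000026390, chromosome 1 from 120474538 to 120505024, minus strand) is best known from marginal zone macrophages and was the lowest of the genes that rose. RPMs of mice 1 to 4 had 23, 37, 20, and 27 counts in WT and 35, 26, 41, and 38 counts in those labelled Il1rl1-/-. Pre-RPMs had 5, 2, 4, and 5 counts in WT and 8, 8, 2, and 10 in those labelled Il1rl1-/-. These low counts did not overlap between pre-RPMs and RPMs, and the log2 fold change was 2.55 (SE 0.32, edgeR adjusted p = 1.18e-05) in WT and 2.21 (SE 0.34, edgeR adjusted p = 5.72e-05) in libraries with the Il1rl1-/- label. The summed CPM of 4 markers of marginal zone and metallophilic macrophages was 45.4 to 67.7 in pre-RPMs and 131 to 199 in RPMs. The 4 did not move together. In WT, 1 rose (*Nr1h3*) and 1 fell (*Cd209a*), with a median log2 fold change of -0.06. In the libraries labelled Il1rl1-/-, 2 rose and 2 fell, with a median of 0.08. The part of these macrophages in the *Marco* level was not tested. Monocytes labelled Il1rl1-/- had no *Marco* count, and in WT monocytes the counts were 8, 0, 1, and 0.

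*Msr1* (ENSMUSG00000025044, chromosome 8 from 39581685 to 39642673, minus strand) and *Colec12* (ENSMUSG00000036103) went the other way. *Msr1* had 49.5, 37.7, 47.2, and 48.0 CPM in WT pre-RPMs of mice 1 to 4 and 1.06, 2.66, 0.268, and 0.464 CPM in WT RPMs. Libraries labelled Il1rl1-/- had 50.3, 45.6, 47.2, and 54.6 CPM in pre-RPMs and 0.901, 0.821, 0.881, and 2.35 CPM in RPMs. RPM libraries thus held 1 to 13 *Msr1* counts. *Msr1* fell by 5.28 on the log2 scale (SE 0.30, edgeR adjusted p = 3.54e-09) in WT and by 5.37 (SE 0.21, edgeR adjusted p = 8.19e-12) in libraries with the Il1rl1-/- label.

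*Colec12*, whose span holds 4 other annotated genes on the same strand, was the most abundant of the 10 genes per length in pre-RPMs. Its level in pre-RPMs of mice 1 to 4 was 129, 90.9, 143, and 107 CPM in WT and 141, 124, 152, and 137 CPM in those labelled Il1rl1-/-. In RPMs, it was 5.53, 4.09, 1.61, and 2.78 CPM in WT and 4.73, 4.10, 4.84, and 5.35 CPM in those labelled Il1rl1-/-. The groups are far apart, and *Colec12* fell by 5.06 on the log2 scale (SE 0.24, edgeR adjusted p = 7.01e-10) in WT and fell by 4.92 (SE 0.12, edgeR adjusted p = 1.06e-13) in libraries with the Il1rl1-/- label. The summed CPM of 8 monocyte markers, all 8 of which fell in each genotype, moved the same way, from 1222 to 1517 in pre-RPMs to 9.47 to 65.0 in RPMs.

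WT pre-RPMs of mouse 3, which stood above the other WT pre-RPM libraries for *Cd5l*, *Cd163*, *Mrc1*, and *Stab2*, also had the highest summed RPM marker level among pre-RPMs, 334 CPM against 158 to 223 in the other 7 libraries. This library also had the highest sums of erythroid markers (31.0 CPM against 7.11 to 15.2) and of basophil and mast cell markers (63.9 against 3.32 to 32.3) among pre-RPMs. The parts of RPM, erythroid, and basophil or mast cell RNA in these values were not tested. Without this library, the WT log2 fold change was 7.43 for *Cd5l*, 7.17 for *Cd163*, and 7.97 for *Stab2*. Without WT RPMs of mouse 2, which held 13 of the 21 *Msr1* counts of WT RPMs, *Msr1* fell by 6.16. Both sets of 8 calls were made again in each of the 8 fits that left out 1 library.

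**Figure D2:**
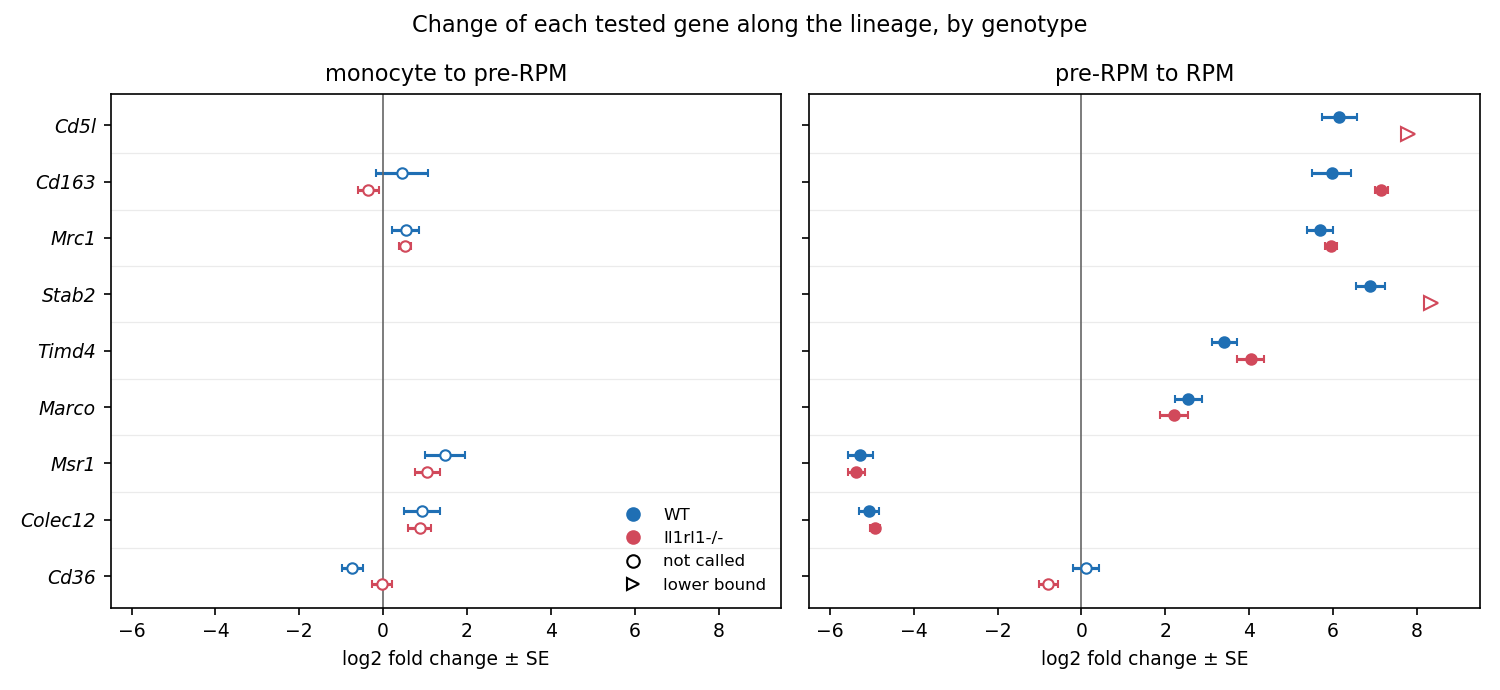
Log2 fold change with its SE from monocytes to pre-RPMs (left) and from pre-RPMs to RPMs (right), with WT in blue and libraries labelled Il1rl1-/- in red, for the genes tested; filled points were called, open points were not, and triangles are lower bounds for genes with no pre-RPM library above 3 counts. The large changes, in both directions, lie between pre-RPMs and RPMs, while all points of the left panel lie between -0.73 and 1.48.

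*Cd36* (ENSMUSG00000002944, chromosome 5 from 17781690 to 17888801, minus strand) was counted in all 24 libraries, from 8.21 to 39.5 CPM, without the large steps of the 8 called genes. In WT, mice 1 to 4 had 23.5, 22.9, 38.2, and 34.3 CPM in monocytes, then 17.0, 26.6, 13.3, and 14.6 CPM in pre-RPMs, and 10.4, 15.9, 32.5, and 22.0 CPM in RPMs. Libraries labelled Il1rl1-/- had 17.6, 17.9, 33.9, and 39.5 CPM in monocytes, 24.7, 25.7, 24.8, and 30.9 CPM in pre-RPMs, and 14.4, 8.21, 20.5, and 22.0 CPM in RPMs. The WT groups of pre-RPMs and RPMs overlap, and those labelled Il1rl1-/- do not. From pre-RPMs to RPMs, the log2 fold change of *Cd36* was 0.11 (SE 0.30, edgeR adjusted p = 0.778) in WT and -0.79 (SE 0.22, edgeR adjusted p = 0.00803) in libraries with the Il1rl1-/- label, the latter under the threshold of 1 on size.

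Among RPM libraries, the level of *Cd36* was set beside erythroid markers. The summed CPM of 6 erythroid markers in RPMs of mice 1 to 4 was 202, 229, 664, and 447 in WT and 245, 123, 574, and 659 in those labelled Il1rl1-/-. In both genotypes, the 4 RPM libraries fall in the same order by *Cd36* as by this sum. *Stab1* had this order in WT RPMs and *Colec12* in RPMs labelled Il1rl1-/-, whereas *Colec12* in WT RPMs and *Stab2* in RPMs labelled Il1rl1-/- had the opposite order. In WT pre-RPMs, where the erythroid sum was 7.11 to 31.0 CPM, *Cd36* itself had the opposite order. Such orders were read for the 10 genes and 5 marker lists in every group with a gene above 3 counts, and of 255 orders 24 were the same and 17 the opposite. CD36 is also present on erythroid precursors, and the part of erythroid RNA in the *Cd36* level of RPMs was not tested.

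**Figure D3:**
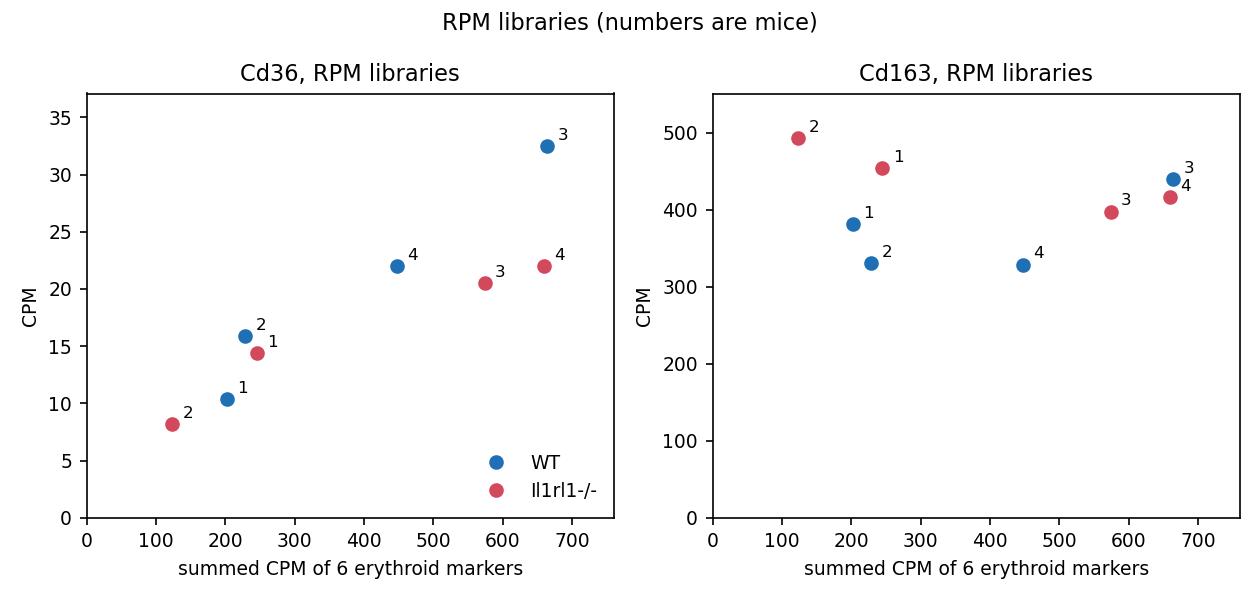
CPM of *Cd36* (left) and *Cd163* (right) in the 8 RPM libraries against the summed CPM of 6 erythroid markers, with the mouse number beside each point, WT in blue and libraries labelled Il1rl1-/- in red. *Cd36* goes from 8.21 CPM in the library with the least erythroid RNA to 32.5 CPM in that with the most, whereas the 4 libraries of a genotype are in a different order by *Cd163*.

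The second comparison asked whether these genes changed between monocytes and pre-RPMs. None of the 10 passed the threshold in either genotype by edgeR, with 5 tested (*Cd163*, *Cd36*, *Msr1*, *Mrc1*, and *Colec12*), where 3.57% of all genes tested were called in WT and 4.85% in those labelled Il1rl1-/-. At an unadjusted p under 0.05, 3 of them differed in WT (*Msr1* and *Colec12* higher, *Cd36* lower) and 3 in those labelled Il1rl1-/- (*Msr1*, *Mrc1*, and *Colec12*, all higher). Of all genes tested by edgeR, 3540 of 11091 in WT and 3425 of 11196 with the Il1rl1-/- label were also under this unadjusted p. *Cd5l*, *Marco*, *Stab1*, *Stab2*, and *Timd4* did not pass edgeR's filter on low counts. DESeq2, which kept more genes, called 0 of the 10 in WT and *Marco* alone in those labelled Il1rl1-/- (DESeq2 adjusted p = 0.000734), where no monocyte library had a count and pre-RPMs had 8, 8, 2, and 10, at least 2.17-fold higher with monocytes set at the limit of 3 counts. *Msr1* was not called there by DESeq2 (adjusted p = 0.014).

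Among the 5 genes tested by edgeR, *Msr1* and *Colec12* had the largest log2 fold changes. *Msr1* in monocytes of mice 1 to 4 had 10.1, 2.21, 29.5, and 24.1 CPM in WT and 7.42, 22.0, 33.7, and 32.0 CPM in those labelled Il1rl1-/-, and every pre-RPM library was above them. Its log2 fold change was 1.48 (SE 0.47, edgeR adjusted p = 0.0578) in WT and 1.05 (SE 0.30, edgeR adjusted p = 0.0326) in libraries with the Il1rl1-/- label. Blocking on the mouse number gave 1.13 (edgeR adjusted p = 0.00841) in the latter, which passes the threshold, and 1.72 (edgeR adjusted p = 0.0205) in WT. *Colec12* had 29.8, 22.9, 117, and 77.2 CPM in WT monocytes and 37.8, 51.7, 121, and 91.9 CPM in those labelled Il1rl1-/-. In WT these overlap with pre-RPMs, where the fitted log2 value was 0.93 (SE 0.42, edgeR adjusted p = 0.149), and in the libraries labelled Il1rl1-/- they do not, with 0.87 (SE 0.28, edgeR adjusted p = 0.0478). *Cd36* had a log2 fold change of -0.73 in WT (SE 0.24, edgeR adjusted p = 0.0617), and that of *Mrc1* was 0.54 (SE 0.32, edgeR adjusted p = 0.265) in WT and 0.52 (SE 0.15, edgeR adjusted p = 0.0337) in libraries with the Il1rl1-/- label.

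Monocyte libraries were spread widely for *Msr1* and *Colec12*, and NK cell markers differed among them too. The summed CPM of 7 NK cell markers in monocytes of mice 1 to 4 was 1616, 1896, 567, and 1057 in WT and 1564, 1166, 501, and 803 in those labelled Il1rl1-/-. In both genotypes, the 4 libraries fall in exactly the opposite order by *Msr1* and by *Colec12*, and the same order as by the summed CPM of 8 monocyte markers (545 to 1279 in WT, 719 to 1349.7 in those labelled Il1rl1-/-). Both genes also had the same order as the summed CPM of 8 RPM markers in monocytes of each genotype (59.4 to 139.6 in WT, 41.0 to 125 in those labelled Il1rl1-/-). *Cd36* was in the opposite order to NK cell markers, and in the same order as monocyte and RPM markers, in WT monocytes. NK cell markers were not alone in their order. The summed CPM of 7 T cell markers in monocytes of mice 1 to 4 was 98.2, 130, 46.1, and 69.2 in WT. With the Il1rl1-/- label, it was 121, 89.7, 43.7, and 50.4, and both genotypes had the order of the NK cell markers. The sum of 6 B cell markers had that order in WT and not with the Il1rl1-/- label. The parts of NK cell, T cell, B cell, monocyte, and RPM RNA in these levels were not tested. All 7 NK cell markers fell from monocytes to pre-RPMs in each genotype. Without WT monocytes of mouse 3, *Msr1* (1.87, edgeR adjusted p = 0.00911) and *Colec12* (1.43, edgeR adjusted p = 0.00902) were called in WT, and without monocytes of mouse 3 labelled Il1rl1-/-, *Colec12* was called there (1.20, edgeR adjusted p = 0.00332).

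**Figure D4:**
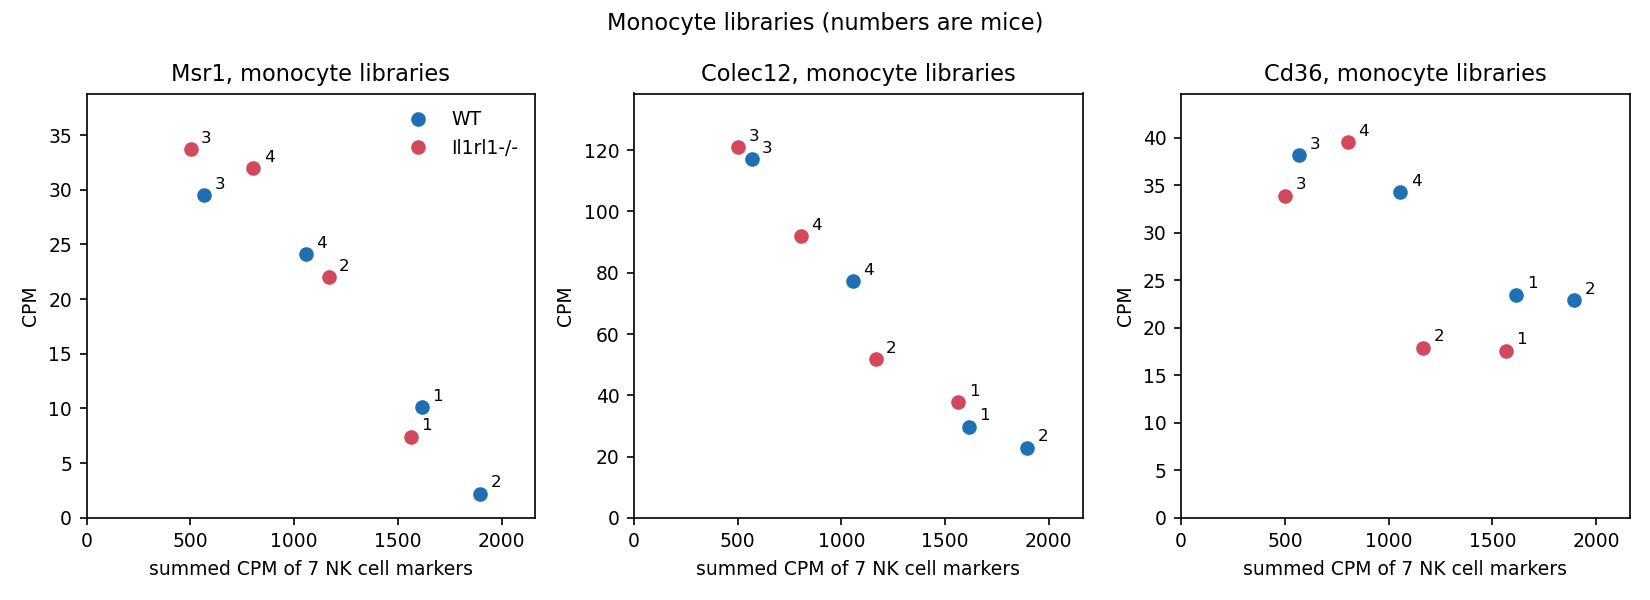
CPM of *Msr1*, *Colec12*, and *Cd36* in the 8 monocyte libraries against the summed CPM of 7 NK cell markers, with the mouse number beside each point, WT in blue and libraries labelled Il1rl1-/- in red. *Msr1* ranges from 2.21 CPM in the library with the most NK cell RNA (1896) to 33.7 CPM in that with the least (501), and *Colec12* from 22.9 to 121 CPM.

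The third comparison asked whether the genotype label altered these genes. By edgeR, at a threshold of 0.05 on the adjusted p, none of the 10 was called, with 5 tested in monocytes, also 5 in pre-RPMs, and 8 in RPMs, where 0.0614%, 0.552%, and 0.233% of all genes tested were called. At an unadjusted p under 0.05 there were 0, 1, and 0, beside 410 of 11405, 941 of 10698, and 811 of 11150 among all genes tested. DESeq2 called none of the 10. With the mouse number as a block, 27, 145, and 81 genes were called in place of 7, 59, and 26, none of them among the 10. Between genotypes, this number is shared by different animals, so the block is not a pairing of animals. In RPMs, the log2 fold change with the Il1rl1-/- label against WT came to 0.24 (SE 0.12) for *Cd163*, 0.14 (SE 0.14) for *Mrc1*, 0.13 (SE 0.11) for *Stab2*, 0.11 (SE 0.19) for *Cd5l*, 0.38 (SE 0.21) for *Timd4*, 0.25 (SE 0.26) for *Marco*, 0.39 (SE 0.32) for *Colec12*, and -0.31 (SE 0.33) for *Cd36*, with edgeR adjusted p of 0.725 or more. The genotypes overlapped in RPMs for all 10 genes. The single value with an unadjusted p under 0.05 was *Cd36* in pre-RPMs, at 0.58 (SE 0.18, edgeR adjusted p = 0.26). Its level there was 17.9 ± 6.03 CPM in WT and 26.5 ± 2.94 CPM in the libraries labelled Il1rl1-/- (mean ± SD, n = 4 each), and WT mouse 2, at 26.6 CPM, lay among the latter. Without WT pre-RPMs of mouse 2, the log2 fold change was 0.83 (edgeR adjusted p = 0.0148) and *Cd36* was called. *Cd5l* did not pass the filter in pre-RPMs. WT mice 1 to 4 had 2, 0, 21, and 7 counts there, and mice labelled Il1rl1-/- had 0, 0, 0, and 1. No fold is given, because mouse 3 held most of the WT counts and only 2 of the 4 WT libraries exceeded 3 counts. The groups overlap, and *Cd5l* was called without the filter (edgeR adjusted p = 0.000153) and not by DESeq2 (adjusted p = 0.102). Without the filter, edgeR also gave *Msr1* an adjusted p of 1.66e-15 from WT monocytes to pre-RPMs, where it was not called with the filter. Calls without the filter are therefore given as an alternative only.

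The change from pre-RPMs to RPMs was also compared between genotypes as an interaction. None of the 10 was called by edgeR, with 9 tested, where 0.107% of all genes tested were called, and DESeq2 called none. At an unadjusted p under 0.05, the change was larger in the libraries labelled Il1rl1-/- for *Cd5l* (edgeR adjusted p = 0.255), *Stab2* (edgeR adjusted p = 0.423), and *Cd163* (edgeR adjusted p = 0.661), and smaller for *Cd36*, at -0.88 on the log2 scale (edgeR adjusted p = 0.661). Of all 12150 genes tested by edgeR, 914 were under this unadjusted p. WT pre-RPMs of mouse 3 had 21 counts of *Cd5l*, 17 of *Stab2*, and 63 of *Cd163*. The difference for *Cd163* was 1.20 on the log2 scale (SE 0.57) with this library and -0.01 without it. Those of *Cd5l* and *Stab2* kept their direction without it (edgeR adjusted p = 0.586 and 0.827), and no size is given for them because pre-RPMs labelled Il1rl1-/- did not exceed 3 counts. For the change from monocytes to pre-RPMs, no member was called or had an unadjusted p under 0.05, and of all genes 0 were called by edgeR, with 454 at an unadjusted p under 0.05.

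Per length, the set that made up the receptor RNA changed along the lineage. Mean summed RPKM of the 10 genes was 21.4 in WT monocytes, 32.2 in WT pre-RPMs, and 341 in WT RPMs, and 22.9, 36.0, and 382 in the libraries labelled Il1rl1-/-. In WT pre-RPMs, *Colec12* held 41.7% ± 3.51, *Msr1* 22.6% ± 3.31, and *Cd36* 16.3% ± 7.88 of this sum (mean ± SD, n = 4). In WT RPMs, *Mrc1* held 47.8% ± 1.30, *Cd163* 20.1% ± 2.77, *Cd5l* 19.6% ± 2.42, and *Stab2* 6.73% ± 0.74, while *Colec12* held 0.124% ± 0.0694 (mean ± SD, n = 4). The order by mean RPKM in WT RPMs was *Mrc1* (164), *Cd163* (67.8), *Cd5l* (67.2), *Stab2* (22.7), *Timd4* (10.4), *Cd36* (5.63), *Marco* (3.13), *Colec12* (0.401), *Msr1* (0.175), and *Stab1* (0.0878). The libraries of *Cd163* and *Cd5l* overlapped, as did those of *Timd4* and *Cd36*, *Cd36* and *Marco*, *Colec12* and *Msr1*, and *Msr1* and *Stab1*, and the other neighbours did not. The same 10 genes were in the same order in RPMs labelled Il1rl1-/-.

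**Figure D5:**
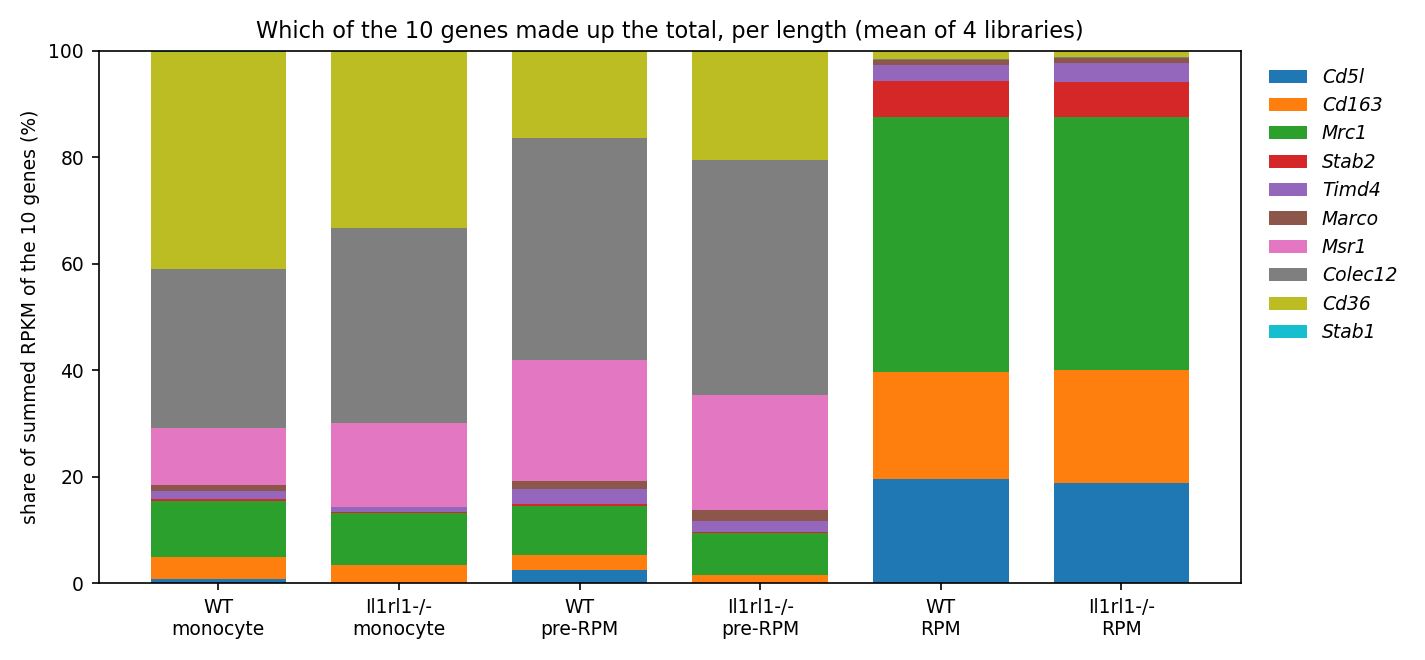
Share (percent, mean of 4 libraries) of each gene in the summed RPKM of the 10 genes, by population and genotype. *Cd36*, *Colec12*, and *Msr1* make up most of the bars of monocytes and pre-RPMs, and *Mrc1* (47.8% in WT, 47.4% in libraries labelled Il1rl1-/-), *Cd163*, and *Cd5l* most of those of RPMs.

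Genes with the most similar pattern were sought among 11673 genes with a mean log2 CPM of at least 1, by Pearson's r of log2 CPM over the 24 libraries, which share the 3 populations and so fall in clusters. They are a description, with no test. For *Cd5l* they were *C6* (0.995), *Hpgds* (0.993), and *Vcam1* (0.993), for *Cd163* *C6*, *Cacna1a*, and *Dgki* (0.992 each), for *Mrc1* *Kcnj16* (0.997), *Myo9a* (0.995), and *Cfp* (0.995), and for *Stab2* *Hs3st2* (0.995), *Slc15a2* (0.994), and *Slc40a1* (0.994). *Timd4* was most like *Hap1* (0.973), *Basp1* (0.964), and *Kcnj10* (0.961), and *Marco* most like *Gpr34* (0.946), *Cttnbp2nl* (0.942), and *Spic* (0.941). *Msr1* was most like *Ms4a4a* (0.987), *Ptpro* (0.982), and *Plxnd1* (0.981), and *Colec12* most like *Inpp5f* (0.992), *Plxnd1* (0.992), and *Klf13* (0.991). *Cd36* had no gene this close, with *Ap3m1* (0.746), *Ago2* (0.719), and *Hipk1* (0.697).

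Other genes of the same pathways were read in the comparison of WT pre-RPMs with WT RPMs, where the median log2 fold change of all genes tested was 0, with 14% of them called higher and 10.7% lower. Of 6 lists, 58 genes were tested between WT monocytes and pre-RPMs and 64 here, so some were kept through their level in RPMs. Of 25 other scavenger receptors and related genes, 10 were tested, 3 rose and 3 fell, with a median of 0.10. *Lgals3bp*, a secreted protein with a cysteine-rich domain like those of CD5L, rose by 2.28 (SE 0.17), the lysosomal glycoprotein *Cd68* by 1.37 (SE 0.18), and the haem-haemopexin receptor *Lrp1* by 1.16 (SE 0.14), with edgeR adjusted p of 1.64e-05 or less. The beta-glucan receptor *Clec7a* fell by 5.02 (SE 0.21, edgeR adjusted p = 2.84e-10), *Cxcl16*, which also binds oxidised lipoprotein, fell by 2.07 (SE 0.31, edgeR adjusted p = 7.58e-05), and the oxidised lipoprotein receptor *Olr1* was at least 8.50-fold lower in RPMs (edgeR adjusted p = 1.20e-06). With the Il1rl1-/- label, 3 rose and 4 fell of 11 tested.

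Among 16 receptors and bridging proteins for phosphatidylserine, the group of TIM-4, 13 were tested, 7 rose and 4 fell in WT, with a median of 2.62. Only 9 of the 16 were tested between WT monocytes and pre-RPMs, so some of the 13 were kept through their level in RPMs. Their count and median are not read against all genes. The receptor kinase *Mertk* rose by 7.85 (SE 0.41), and the complement components *C1qc* by 6.43 (SE 0.64) and *C1qb* by 6.28 (SE 0.58), with edgeR adjusted p of 1.07e-06 or less. The bridging protein *Pros1* fell by 4.25 (SE 0.29, edgeR adjusted p = 2.57e-08), *Cd300lb* by 3.12 (SE 0.15, edgeR adjusted p = 6.42e-10), and *Cd300ld* fell by 2.28 (SE 0.27, edgeR adjusted p = 5.56e-06). *Cd300ld* was also higher in pre-RPMs labelled Il1rl1-/- than in WT, by 0.85 (SE 0.17, edgeR adjusted p = 0.0316). With the Il1rl1-/- label, 7 rose and 5 fell of 13.

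Of 6 genes that handle haem and iron downstream of CD163, all 6 rose in WT libraries and in those labelled Il1rl1-/-, with medians of 3.17 and 3.56. They were led in WT by ferroportin, *Slc40a1* (6.65, SE 0.39, edgeR adjusted p = 5.07e-09), haem oxygenase, *Hmox1* (5.03, SE 0.40, edgeR adjusted p = 1.15e-07), and the biliverdin reductase *Blvrb* (3.40, SE 0.13, edgeR adjusted p = 1.80e-10). Of 16 genes of lipid handling, 6 rose and 1 fell in WT (beside 14% and 10.7% of all genes tested), with a median of 0.32, led by lipoprotein lipase, *Lpl* (3.55, SE 0.19), the fatty acid carrier *Fabp5* (3.31, SE 0.44), and the cholesterol exporter *Abca1* (2.91, SE 0.13), while *Fabp4* fell by 1.53 (SE 0.36), with edgeR adjusted p of 0.00279 or less. In the libraries labelled Il1rl1-/-, 5 rose and 1 fell. *Abca1* was the gene of these lists whose change from pre-RPMs to RPMs differed between genotypes, being larger by 0.98 in the libraries labelled Il1rl1-/- (SE 0.16, edgeR adjusted p = 0.00972).

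Of 10 partners of CD36 in signalling, 3 rose and none fell in WT libraries and in those labelled Il1rl1-/-, with medians of 0.03 and -0.09. With 24.7% of all genes tested called in WT and 26% with the Il1rl1-/- label, this share is near the background. In WT these were *Src* (3.97, SE 0.25), *Tlr4* (2.90, SE 0.18), and *Fyn* (1.33, SE 0.12), with edgeR adjusted p of 5.36e-07 or less. Of 9 transcription factors whose targets include scavenger receptors, 5 rose and 1 fell in WT, with a median of 1.66. The largest rises were those of *Spic* (4.52, SE 0.18), the factor that marks RPMs, and *Nr1h3* (3.80, SE 0.12), which encodes the oxysterol receptor LXR alpha, and *Spi1*, which encodes PU.1, fell by 1.41 (SE 0.12), with edgeR adjusted p of 2.83e-07 or less. In the libraries labelled Il1rl1-/-, 5 rose and 2 fell.

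From monocytes to pre-RPMs, 5 of the 58 tested genes of these 6 lists were called in WT (8.62%, beside 3.57% of all genes tested) and 9 of 58 in the libraries labelled Il1rl1-/- (15.5%, beside 4.85%). In WT, *Spic* rose by 2.35 (SE 0.37, edgeR adjusted p = 0.00229), while the endocytic receptor *Ly75* fell by 2.47 (SE 0.27, edgeR adjusted p = 0.000421), *Fyn* by 1.71 (SE 0.21, edgeR adjusted p = 0.000575), *Cd9* by 1.6 (SE 0.30, edgeR adjusted p = 0.00568), and *Fasn* by 1.1 (SE 0.21, edgeR adjusted p = 0.00755). In the libraries labelled Il1rl1-/-, *Axl* (2.09, SE 0.26, edgeR adjusted p = 0.00027), *Spic* (2.09, SE 0.22, edgeR adjusted p = 0.000101), *Apoe* (1.84, SE 0.26, edgeR adjusted p = 0.000776), *Hmox1* (1.12, SE 0.22, edgeR adjusted p = 0.00521), and *Slc11a1* (1.11, SE 0.23, edgeR adjusted p = 0.00762) rose. *Ly75*, *Fyn*, *Abca1*, and *Fasn* had -2.69, -1.75, -1.26, and -1.16 there, all of them called, with edgeR adjusted p of 0.00603 or less. The difference of these changes between genotypes was called by edgeR for none of them, as for no gene at all.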

How the data were processed

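RNA-seq counts of 24 libraries, 4 mice in each of 6 groups, were analysed. Per the labels and methods, RNA of sorted cells was made into stranded total RNA libraries. The authors trimmed reads with cutadapt (2.8 per the submitters' processing notes), aligned them with STAR 2.5.1 and counted exon reads by gene with featureCounts 1.6.2 on GRCm38 with Ensembl release 95, and deposited raw counts per gene, which is the unit used here. The processing notes also name a human build, which the file headers do not. Multi-mapping reads and shared exons can lower counts of overlapping genes.

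From these counts, edgeR 4.0.16 (R 4.3.3, limma 3.58.1) was run with filterByExpr, TMM factors, and quasi-likelihood F tests, on the groups of each comparison, with Benjamini-Hochberg adjustment over all genes tested. Calls between cell types needed a log2 fold change beyond 1 in size together with an adjusted p below 0.01, and those between genotypes and for interactions an adjusted p below 0.05. SE is the log2 fold change divided by the root of the F statistic. A fold against a group with no library above 3 counts is a lower bound, using 3 counts per library. CPM used TMM factors over all 24 libraries, RPKM the exon lengths of the files, and log2 CPM a prior count of 2 (12842 genes kept). Libraries with the same mouse number within a genotype are labelled as the same animal, and the correlation of their deviations from the group means was on average 0.078 (WT) and 0.25 (Il1rl1-/-) for monocytes and pre-RPMs and 0.13 and 0.12 for pre-RPMs and RPMs. Across genotypes, the number is shared by different animals, with 0.291, 0.121, and 0.2 in monocytes, pre-RPMs, and RPMs. Alternatives were DESeq2 1.42.0, no filter on low counts, a mean count of at least 10, a fit over all 24 libraries, the mouse number as a block, and each library left out. The scripts were tested on simulated data. The 10 genes, the lists, and the tests were chosen with earlier results of these data known. Named genes of a list are up to 3 called genes with the largest rise and up to 3 with the largest fall per comparison, and for likeness the 3 genes with the highest r. A gene of these lists and a promoter string are not reported here. Promoter sequences are from RefSeq (GRCm38.p6).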

Additional observations from a re-analysis of the deposited data

Results flagged for a closer look

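A library far from the other 3 of its group was sought in 51 groups with a library above 3 counts, by the gap to the nearest library as a share of the group's range, against Dixon's critical value, and 5 were found. Chance alone flags about 1 in 20 groups. *Cd163* was 15.5 CPM in WT pre-RPMs of mouse 3 and 1.17 to 3.58 CPM in the others. *Cd36* was 30.9 CPM in pre-RPMs labelled Il1rl1-/- of mouse 4, against 24.7 to 25.7 CPM. *Msr1* was 2.35 CPM in RPMs labelled Il1rl1-/- of mouse 4, against 0.821 to 0.901 CPM. *Stab1* was 1.08 CPM in WT monocytes of mouse 1, a library of 7 counts beside 3 libraries at 0. *Mrc1* was 19.0 CPM in WT monocytes of mouse 4, against 10.4 to 11.8 CPM.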

How the results depend on the processing

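The 8 calls among the 10 genes from pre-RPMs to RPMs were made in each genotype under every alternative run. Other counts moved. From monocytes to pre-RPMs in WT, 396 genes were called, 694 by DESeq2, 1094 without a filter, 772 in the fit of all 24 libraries, 239 without the monocytes of mice 1 and 2, and 169 to 1041 with a library left out. Of the 10 genes, 0 were called, 3 without a filter (*Msr1* 1.47, *Timd4*, and *Cd5l*), and 0 to 2 with a library left out. In the libraries labelled Il1rl1-/-, 543 genes were called, 1060 without a filter, 321 without the monocytes of mice 1 and 2, and 336 to 813 with a library left out. Of the 10 genes, 0 were called, 1 by DESeq2 and 1 in the fit of all 24 libraries (*Marco* in both), 1 with the replicate block (*Msr1* 1.13; *Cd36* turned to 0.03), 3 without a filter (*Msr1* 1.04, *Marco*, and *Timd4*), and 0 to 1 with a library left out. Between genotypes, 7 genes in monocytes became 26 by DESeq2, 139 without a filter, 16 in the fit of all 24 libraries, 27 with the replicate block, and 1 to 8 with a library left out, and *Cd36* turned to 0.02 without mice 1 and 2. The 59 genes in pre-RPMs became 265 without a filter (2 of the 10, *Cd36* 0.59 and *Cd5l*), 17 in the fit of all 24 libraries, 145 with the replicate block, and 37 to 68 (0 to 1 of the 10) with a library left out. The 26 genes in RPMs became 60 by DESeq2, 272 without a filter, 81 with the replicate block, and 19 to 38. For the genotype difference of the monocyte to pre-RPM change, 0 genes became 78 without a filter, *Mrc1* turned to 0.04 with the replicate block and 0.21 without mice 1 and 2, and *Colec12* to 0.09 without mice 1 and 2. For that of the pre-RPM to RPM change, 13 genes became 36 by DESeq2, 224 without a filter (4 of the 10: *Cd163* 1.19, *Cd36* -0.90, *Stab2*, and *Cd5l*), 3 in the fit of all 24 libraries, 24 with the replicate block, and 10 to 18 with a library left out. The monocytes of mice 1 and 2 were left out after seeing the data, as those with the most NK cell marker RNA in WT and labelled Il1rl1-/- alike, and were also the lowest for *Msr1*, *Colec12*, and *Cd36*, so the values without them bear on no source of this RNA. The cause of these moves was not tested.

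With 1 library left out, values turned sign within these ranges: *Cd163* -0.75 to 0.81 (WT monocytes to pre-RPMs), *Cd36* -0.20 to 0.36 (WT pre-RPMs to RPMs) and -0.20 to 0.20 (monocytes to pre-RPMs labelled Il1rl1-/-). Between genotypes these were *Cd163* -0.31 to 0.05, *Cd36* -0.36 to 0.04, *Mrc1* -0.20 to 0.14, and *Colec12* -0.03 to 0.81 in monocytes, *Cd163* -1.30 to 0.26 and *Mrc1* -0.30 to 0.31 in pre-RPMs, and *Cd5l* -0.09 to 0.25 in RPMs. For the differences of change they were *Cd163* -1.16 to 0.40, *Mrc1* -0.27 to 0.42, and *Colec12* -0.57 to 0.26 (monocytes to pre-RPMs), and *Cd163* -0.01 to 1.55, *Msr1* -0.55 to 0.82, *Mrc1* -0.17 to 0.45, and *Colec12* -0.05 to 0.46 (pre-RPMs to RPMs). Apart from the call of *Msr1*, the block changed no call of the 10 genes. Under 3 counts, levels could not be told from 0 at this depth.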

Other observations

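Markers of other cell types were read in the same libraries, and their part in the levels of the 10 genes was not tested. Summed over 9 neutrophil markers, monocytes held 603 to 1963 CPM, pre-RPMs 129.8 to 303 CPM, WT RPMs 9.74 to 16.4 CPM, and RPMs labelled Il1rl1-/- 1.98 to 5.18 CPM. *S100a9*, a calcium-binding protein of neutrophils and monocytes, was lower in RPMs labelled Il1rl1-/- than in WT (log2 fold change -2.51, SE 0.37, edgeR adjusted p = 0.00816). In pre-RPMs, the NK cell markers *Ncr1*, *Prf1*, *Gzma*, and *Gzmb* were lower in the libraries labelled Il1rl1-/- (log2 fold changes -2.04, -2.03, -1.94, and -2.19, with edgeR adjusted p of 0.012 or less), as were the B cell markers *Ms4a1* and *Pax5*, while *Itgax* and *Dpp4* of 8 dendritic cell markers were higher (0.98 and 0.70). The sum of 7 basophil and mast cell markers was 12.4 to 63.9 CPM in WT pre-RPMs and 3.32 to 5.24 CPM in those labelled Il1rl1-/-, and *Gata2*, 1 of the 2 tested, was lower (-3.01, SE 0.45, edgeR adjusted p = 0.00328). Neither *Cd36* nor any other of the 10 genes was called in that comparison.

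Of 6 markers listed for eosinophils, the summed level was 275 to 399.9 CPM in RPMs and 38.6 to 83.6 CPM in pre-RPMs, and *Ccr3*, a chemokine receptor, rose from pre-RPMs to RPMs in both genotypes (3.05 and 3.63), whereas *Epx*, eosinophil peroxidase, was not above 3 counts in any RPM library. In WT, 1 of 2 eosinophil markers tested rose and none fell. With the Il1rl1-/- label, 1 rose and 1 fell of 3 tested, with a median log2 fold change of -0.88. *Il5ra* and *Ear6* were not above 3 counts in RPMs labelled Il1rl1-/-. *Cd4*, listed as a T cell marker, also rose from pre-RPMs to RPMs in both genotypes (3.12 and 3.14). Of 4 T cell markers tested, 3 rose in WT and 1 with the Il1rl1-/- label, and none fell. Summed over 7 T cell markers, WT pre-RPMs held 14.8 to 27.3 CPM and WT RPMs 43.7 to 103 CPM. With the Il1rl1-/- label, these were 12.0 to 21.6 and 47.3 to 81.1 CPM. Summed over 5 plasma cell markers, monocytes held 335 to 1736 CPM and RPMs 10.3 to 187 CPM. Summed levels in all 24 libraries were 12.0 to 130 CPM for 7 T cell markers, 19.7 to 112 CPM for 6 B cell markers, 67.9 to 217 CPM for 8 dendritic cell markers, 0.44 to 80.2 CPM for 7 basophil and mast cell markers, and 4.30 to 14.3 CPM for 8 stromal markers.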
